A study of Mus musculus with 2 samples.

Results

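Mouse microRNA (miRNA) genes of the miR-99/100 and miR-125 kinds lie in 3 loci, 1 of each kind per locus. They are Mir99a with Mir125b-2 on chromosome 16, Mir99b with Mir125a on chromosome 17 and Mir100 with Mir125b-1 on chromosome 9. The 6 genes were taken by name from the annotation of the deposited tables, and all 6 are among the 1973 miRNA genes counted. The data are microRNA-seq of RNA under 30 nucleotides from the hindbrain of newborn mice, strain B6NCrl, at postnatal day 0. The series has 1 group of 2 libraries, from the single hindbrains of pup 1 and pup 3, with no treatment or genotype named and sex not collected. Both pups carry the same donor identifier in the labels, although they are described as separate animals, so differences between the libraries may be technical. With 1 library per pup, p-values below cover counting error only and measure no spread between animals.

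A miRNA is cut from a hairpin precursor, and one strand of the duplex guides repression of messenger RNAs that pair with its seed, bases 2 to 8 of the mature sequence. The miR-125 genes are relatives of lin-4, which with let-7 was found as a regulator of developmental timing in worms, and a let-7 gene lies beside each of these pairs in the mouse. In the brain miR-125b is known for promoting neuronal differentiation and shaping synapses, and miR-99 and miR-100 are known to repress components of the mTOR growth pathway.

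The mature sequences show which genes share a seed and which can be told apart by sequencing, so the main strands (5p) are shown first. They are from RefSeq on GRCm38.p6, written 5′ to 3′ with the seed in capitals, and all 6 genes had an entry.
miR-99a-5p: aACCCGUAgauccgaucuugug
miR-100-5p: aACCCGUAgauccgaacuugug
miR-99b-5p: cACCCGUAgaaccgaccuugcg
miR-125a-5p: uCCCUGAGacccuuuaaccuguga
miR-125b-5p: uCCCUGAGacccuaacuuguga

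Mir99a, Mir100 and Mir99b thus share the seed ACCCGUA, and Mir125a, Mir125b-1 and Mir125b-2 share CCCUGAG. Counting positions from 1 at the 5′ end, miR-99a-5p differs from miR-100-5p by 1 substitution, U16A, which is 95.5% identity over 22 bases. It differs from miR-99b-5p by 4, namely A1C, U11A, U16C and U21C. The 24 bases of miR-125a-5p and the 22 of miR-125b-5p have their first 13 bases in common. Mir125b-1 and Mir125b-2 give the same miR-125b-5p, with 0 substitutions.

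The other strands (3p) separate the miR-125b copies, which is why they are shown too, with bases 2 to 8 again in capitals.
miR-125b-1-3p: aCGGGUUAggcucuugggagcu
miR-125b-2-3p: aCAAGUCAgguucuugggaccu

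This matters for the levels, because reads that match several genomic places are counted for no gene in these tables. The Mir125b-1 and Mir125b-2 precursors have a stretch of 24 bases in common that holds all of miR-125b-5p and the 2 bases before it. A read inside that stretch matches both genes and is in neither count, so their levels below are of reads that can be placed at 1 copy and understate both. None of the other 4 precursors shares more than 16 bases in a row with any of the 2202 miRNA precursors compared, the 16 being between Mir99a and Mir100. That search covered miRNA precursors and not the whole genome.

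Own-strand miRNA gene counts summed to 4906127 in pup 1 and 6238680 in pup 3, and levels are given as counts per 1000000 of these (CPM). A read spans a mature strand, so levels were not divided by length. Reads at several places, left out, were 37.9% and 39.4% of all reads in the tables. Of 11 neural marker genes, 10 have a row in the tables and 7 reached 2 CPM in both pups, with 19216 CPM in sum in pup 1 against 18102 in pup 3. The other 3 with a row, Mir9-2, Mir124a-2 and Mir124a-3, belong to sets of gene copies with the same mature strand, whose common reads are in no gene's count. The Hox-linked genes of hindbrain and cord, 5 of 6 at that level, were higher in pup 1, with 52557 against 34978 CPM in sum. Vessel wall markers stood at 55322 and 65476 CPM with 3 of 3 detected, choroid plexus and ciliated cell markers at 19022 and 17194 CPM with 4 of 4, and blood markers at 1198 and 804 CPM with all 5 that have a row, of 6 listed. Skeletal muscle markers summed to 174 and 159 CPM, nearly all of it Mir206 at 172 and 157 CPM. Mir133a-1, Mir133a-2 and Mir1a-1 were listed at 0 counts, but they too are gene copies with a common mature strand, so these zeros do not show absence. The liver marker Mir122 had 44.6 and 45.2 CPM. Genes of a list did not all go with its sum. Mir449a, of the choroid plexus and ciliated cell list, had 4042.5 CPM in pup 1 against 4935.8 in pup 3. Mir145a, of the vessel wall list, had 381.8 CPM in pup 1 against 326.2 in pup 3. Several of the marker sums differed between the pups along with the members, and their part in the members' differences was not tested.

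Among the miR-99 type genes, Mir99a stood first of all miRNA genes in both libraries, by reads that match 1 place. Reads at several places, 4601400 in pup 1 and 5639848 in pup 3, are in no gene's count. Genes with copies may therefore rank too low here. It had 637369 counts or 129913 CPM in pup 1 and 1014792 counts or 162661 CPM in pup 3, a mean of 146287 ± 23157 (SD, n = 2). Its share of own-strand counts was 12.99% in pup 1 (exact Clopper-Pearson 95% interval 12.96 to 13.02) and 16.27% in pup 3 (16.24 to 16.30), intervals that cover counting error only. Mir99a exceeded the next gene 2.33-fold in pup 1 and 2.49-fold in pup 3. That next gene was Mirlet7g, a let-7 gene outside these loci, and the pups' ranges of the 2 genes did not overlap.

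Mir100, its nearest relative by sequence, stood at 22112 CPM in pup 1 against 27741 in pup 3 (24926 ± 3980, SD, n = 2), rank 10 and rank 8. Mir99b stood at 17208 CPM in pup 1 against 14533 in pup 3 (15871 ± 1892, SD, n = 2) and held rank 12 in both. The order Mir99a, Mir100, Mir99b was the same in each pup, and no 2 of the 3 overlapped. Against all other miRNA genes, Mir100 lay between Mir335 (25357 and 28679 CPM) and Mir30e (26500 and 15993 CPM), and both neighbours overlapped it. Mir99b lay between Mir26b and Mir10b, and their ranges overlapped its own as well.

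Among the miR-125 type genes, Mir125a was the highest by counted reads, with 14667 CPM in pup 1 against 8046 in pup 3, rank 14 and rank 29. Reads common to both miR-125b copies are in neither count, so the order of miR-125a and miR-125b is not set here. It was the most variable member, with an SD of 4682 around a mean of 11357 CPM (coefficient of variation 41.2%, n = 2 pups). The other 5 had coefficients of variation between 5.04% for Mir125b-2 and 15.97% for Mir100. Mir125a lay between Mirlet7b and Mir137 in the order of mean levels, and both overlapped it.

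Mir125b-1 had 2382 CPM in pup 1 against 2692 in pup 3 (2537 ± 219, SD, n = 2). Mir125b-2 had 2431 CPM against 2610 (2520 ± 127, SD, n = 2). The copies were adjacent in the order of all genes, at rank 73 and rank 74 by mean, and their ranges overlapped. Mir1983 above them and Mir154 below them overlapped with their neighbouring copy too. The mean of Mir99a was 58.0 times that of Mir125b-2, the lowest member, but the reads both miR-125b copies share are missing from that ratio.

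**Figure D1:**
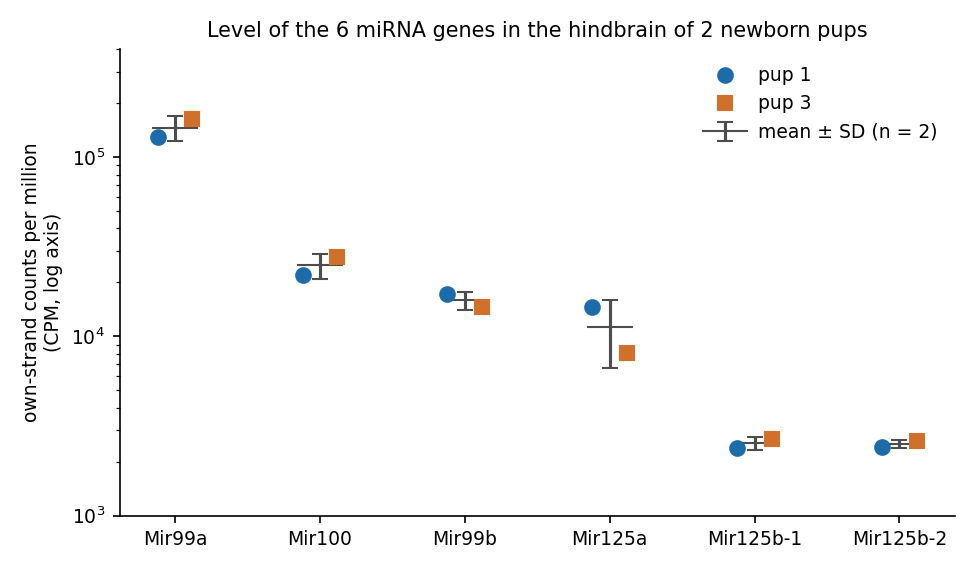
Own-strand counts per 1000000 (log axis) of the 6 genes in pup 1 (circles) and pup 3 (squares), with horizontal marks and bars for the mean ± SD of 2 pups. Mir99a is highest in both, at 129913 and 162661 CPM, and Mir125a spreads most, from 14667 to 8046 CPM. The miR-125b copies sit together between 2382 and 2692 CPM, without the reads they share.

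Summed by seed, the ACCCGUA genes took 16.92% of own-strand counts in pup 1 (exact Clopper-Pearson 95% interval 16.89 to 16.96) and 20.49% in pup 3 (20.46 to 20.53). The CCCUGAG genes took 1.948% in pup 1 (1.936 to 1.960) and 1.335% in pup 3 (1.326 to 1.344), without the reads shared by both miR-125b copies. The first share was higher and the second lower in pup 3, and the ratio of the seed groups was 8.69 in pup 1 and 15.4 in pup 3. Mir99a supplied 76.8% and 79.4% of its seed group in pups 1 and 3, and Mir125a 75.3% and 60.3% of the other.

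Searching the RefSeq mature sequences for the same seeds found no other mouse gene with ACCCGUA and 3 with CCCUGAG. Of these, Mir351 on the X chromosome (53053255 to 53053353, minus strand) was counted at 1031 CPM in pup 1 against 591 in pup 3. Its mature strand is shown because it carries the same seed before a different tail.
miR-351-5p: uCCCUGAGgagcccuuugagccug
Mir6367 and Mir6394 had 0 counts in both pups, a result that leaves room for 0.611 CPM (pup 1) or 0.481 CPM (pup 3), taking 3 counts as the floor. Among annotated CCCUGAG genes, Mir351 thus added 5059 counts to the 95573 of the members in pup 1, and 3684 to 83276 in pup 3.

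The loci differ in spacing and in host gene. Positions are on GRCm38, the assembly of mm10, from the GENCODE M21 annotation, in which Mir125a carries a later version number than in the tables. On chromosome 16, Mir99a (ENSMUSG00000065530.1, 77598936 to 77599000, plus strand) lies 47272 bases before Mir125b-2 (ENSMUSG00000065472.1, 77646273 to 77646343, plus strand). Both are in an intron of all 4 transcripts of the long noncoding RNA gene Mir99ahg that span them, of 17 annotated. RefSeq's Mir99ahg on the same assembly ends at 77558428, before Mir99a, so the host depends on the annotation.

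On chromosome 9, Mir100 (ENSMUSG00000093011.1, 41531425 to 41531504, plus strand) lies 50421 bases before Mir125b-1 (ENSMUSG00000093354.1, 41581926 to 41582002, plus strand). Both lie in 3110039I08Rik, a noncoding gene that RefSeq names Mir100hg. A second long noncoding RNA gene, Gm49317 (41474855 to 41655483), also spans both in an intron of its 1 transcript. Mir100 is intronic in all 13 of its transcripts that span it, and Mir125b-1 in all 24. Mir125b-1 also overlaps an exon of the short sense-intronic gene Gm28119. On chromosome 17, Mir99b (ENSMUSG00000065396.1, 17830188 to 17830257, plus strand) and Mir125a (ENSMUSG00000065479.1 in the tables, 17830812 to 17830879, plus strand) are only 554 bases apart. Their host is Spaca6, a protein-coding gene known for sperm and egg fusion. Mir99b is intronic in both transcripts that span it, and Mir125a is intronic in 2 of 3 and overlaps an exon of the other.

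By counted reads, the pair on chromosome 16 was the most abundant, at 132343 CPM in pup 1 against 165271 in pup 3. The chromosome 9 pair had 24494 and 30433 CPM, and the chromosome 17 pair had 31875 and 22579 CPM. The last 2 changed places between the pups and overlapped in range.

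Within a pair, the division between the genes differed among the loci. Mir125b-2 made up 1.84% of the chromosome 16 pair in pup 1 (exact Clopper-Pearson 95% interval 1.80 to 1.87) and 1.58% in pup 3 (1.56 to 1.60). Mir125b-1 made up 9.73% of the chromosome 9 pair (9.56 to 9.89) and 8.85% (8.72 to 8.98). Mir125a made up 46.0% of the chromosome 17 pair (45.8 to 46.3) and 35.6% (35.4 to 35.9). The order of the loci was the same in both pups and their ranges did not overlap. The shares on chromosomes 16 and 9 leave out the reads common to both miR-125b copies. Adapter ligation does not capture every miRNA equally, which bears on any ratio of different mature sequences.

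The let-7 gene of each locus was counted far below its neighbours on chromosomes 16 and 9. Mirlet7c-1, 656 bases after Mir99a, had 566 CPM in pup 1 against 314 in pup 3. Mirlet7a-2, 5211 bases after Mir100, had 185 CPM in pup 1 against 108 in pup 3. Both precursors have 23 bases in a row in common with another let-7 precursor (Mirlet7c-2 and Mirlet7a-1), so reads are lost from them as from the miR-125b copies. Mirlet7e, 94 bases after Mir99b on chromosome 17, has no row under its own name. The row that covers it, Gm25927, is annotated on the minus strand (17830343 to 17830459), and had 0 own-strand counts in both pups.

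**Figure D2:**
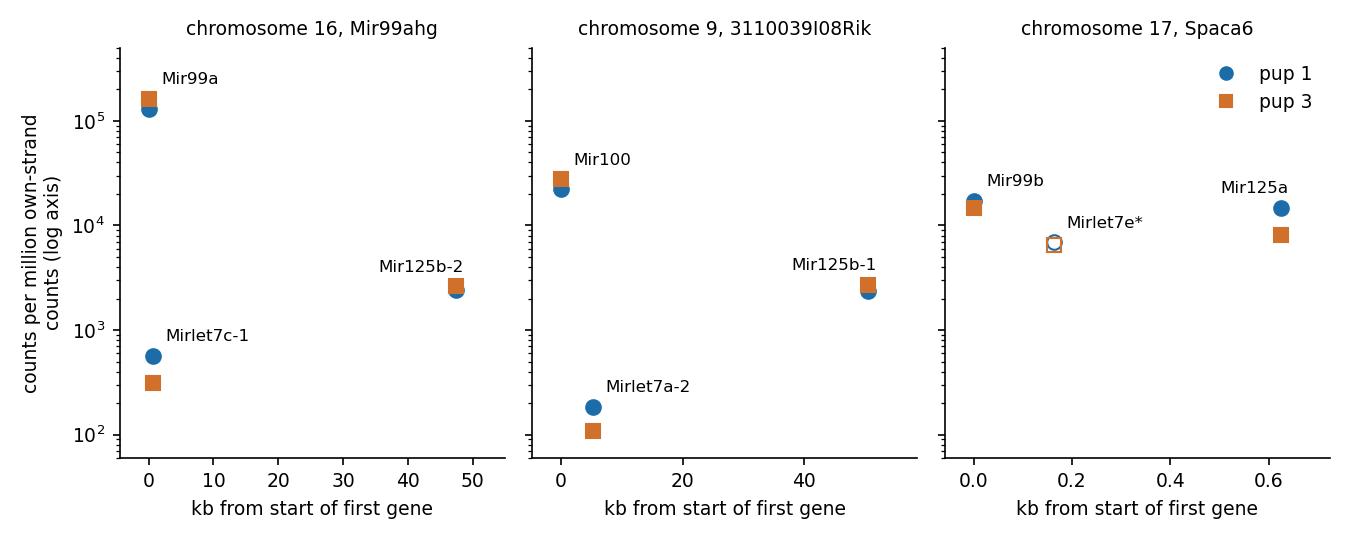
Counts per 1000000 own-strand counts (log axis) of the genes in each locus against distance in kb from the start of the first gene, for pup 1 (circles) and pup 3 (squares), with the host gene named above and a shorter distance axis for chromosome 17. Open symbols marked with a star are reads on the opposite strand of Gm25927, which covers Mirlet7e. By counted reads, the miR-125 type gene is below its miR-99 type partner in each locus. Reads common to Mir125b-1 and Mir125b-2 are in neither count, so the order is not set in their loci.

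The libraries were compared gene by gene over 508 genes with 10 or more counts, with an exact binomial test against the ratio of edgeR's TMM library sizes (1.16, pup 3 over pup 1), Benjamini-Hochberg adjusted. Genes were called where they differed at least 2-fold with an adjusted p below 0.05. None of the 6 members was called, where 6.69% of tested genes were, 0.984% as higher and 5.71% as lower in pup 3. At any fold, all 6 passed the adjusted p, 4 higher and 2 lower in pup 3, where 47.6% of tested genes passed, 23.8% in each direction. Tested genes went down to 10 counts, where small differences rarely pass, so that share is not one of genes at the members' level. At the members' depths, differences far under 2-fold exceed counting error and pass, and the test holds no other variation between libraries. The members' median log2 difference was 0.28, against -0.01 over the 407 genes detected at 2 CPM in both pups.

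The members on chromosomes 16 and 9 had higher values in pup 3. Mir99a differed by 0.46 on the log2 scale (counting interval 0.46 to 0.47) and Mir100 by 0.47 (0.45 to 0.48), with p-values too small to be represented. Mir125b-1 differed by 0.31 (0.28 to 0.35) and Mir125b-2 by 0.24 (0.21 to 0.28), with exact binomial adjusted p of 3.31e-73 and 2.96e-43. Those intervals are 95% and cover counting error only, and log2 values use a pseudocount of 1 CPM. In size, the Mir99a difference was above that of 72.5% of detected genes, and the Mir125b-2 difference above 46.2%.

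The chromosome 17 genes were lower in pup 3. Mir99b differed by -0.11 (-0.12 to -0.09, exact binomial adjusted p = 7.77e-52), a size above 21.9% of detected genes. With DESeq2 size factors its difference was -0.01 (exact binomial adjusted p = 0.0645), so its direction is not set beyond the scaling. Mir125a differed by -0.73 (-0.74 to -0.71, with a p-value too small to be represented), a size above 88.0% of detected genes. The 3 related genes outside the member list were lower in pup 3 as well, with Mirlet7c-1 at -0.71, Mirlet7a-2 at -0.63 and Mir351 at -0.67 on the log2 scale. Mirlet7c-1 and Mirlet7a-2 were thus lower in pup 3 while the members on either side of each were higher. The let-7 genes they share reads with, Mirlet7c-2 and Mirlet7a-1, were also lower in pup 3, at -1.50 and -1.29. Lower let-7 counts were therefore not particular to these loci, but they were not general to let-7 genes. Mirlet7g, Mirlet7i and Mirlet7d were higher in pup 3, at 0.37, 0.29 and 0.06. Mirlet7b and Mirlet7f-2 were slightly lower, at -0.11 and -0.09. The miR-125b copies, which lose shared reads too, were higher, and the part of lost reads was not tested.

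**Figure D3:**
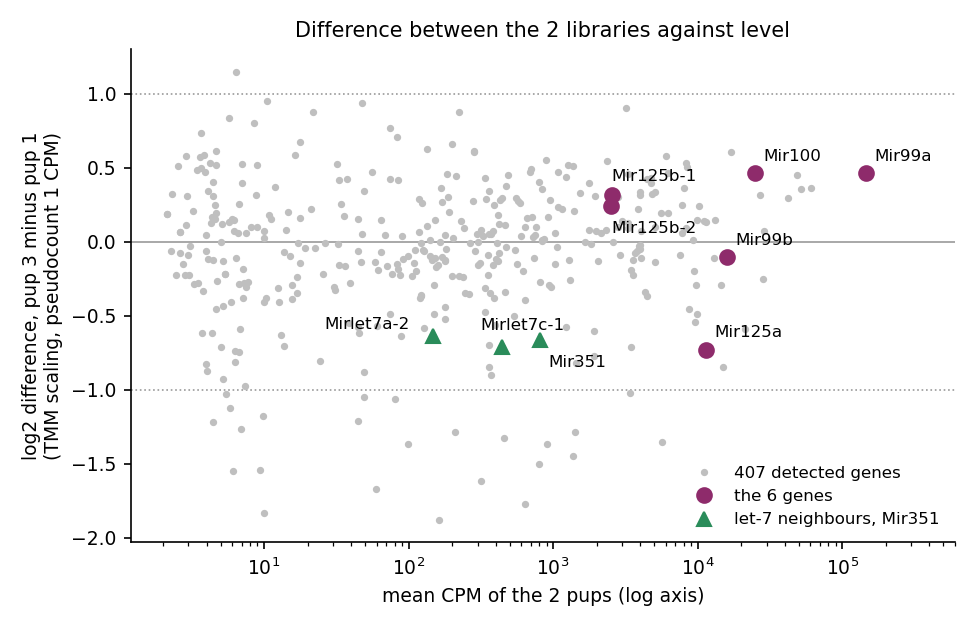
Log2 difference of pup 3 minus pup 1 (TMM scaling, pseudocount 1 CPM) against mean CPM (log axis) for 407 detected miRNA genes in grey, the 6 genes as large circles and Mirlet7a-2, Mirlet7c-1 and Mir351 as triangles; dotted lines mark 2-fold. All 9 named genes lie inside the dotted lines, Mir99a, Mir100 and the miR-125b copies above 0 and the other 5 below it.

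Ratios of genes within a library need no scaling between libraries, so they were also compared, for pairs chosen after the values were seen. Mir99a counts were 5.88 times those of Mir100 in pup 1 and 5.86 times in pup 3. That is a log2 change of -0.003 with a counting SE of 0.006, so the ratio was the same within counting error while both genes were higher in pup 3. Among 96 genes of at least 1000 CPM in both pups, Mir100 was the nearest to Mir99a in log2 difference, at a distance of 0.0028. Mir1298 and Mir872 followed at distances of 0.0030 and 0.0034. With only 2 libraries this likeness is a single number per gene.

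The ratio of Mir125b-1 to Mir125b-2 was 0.98 in pup 1 and 1.03 in pup 3. Its log2 change of 0.07, with a counting SE of 0.02, was small but beyond counting error. Mir125a to Mir351 also differed little, 14.2 against 13.6, a log2 change of -0.06 with a counting SE of 0.03. Ratios between chromosome 17 members and those of the other loci differed far more. Mir99a to Mir99b was 7.55 in pup 1 and 11.2 in pup 3. Mir125a to Mir125b-1 was 6.16 and 2.99, without the reads common to both miR-125b copies. Within the chromosome 16 and 9 loci, Mir99a to Mirlet7c-1 went from 230 to 519 and Mir100 to Mirlet7a-2 from 119 to 257. Both let-7 counts lack the reads shared with other let-7 genes. Those were log2 changes of 1.18 and 1.10, where Mir125a to Mir125b-1 changed by -1.04. Mir125a was not set against Mir99a or Mir100, whose differences between the pups lay further from its own than that of Mir125b-1. The let-7 changes are therefore not ranked against those between members.

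**Figure D4:**
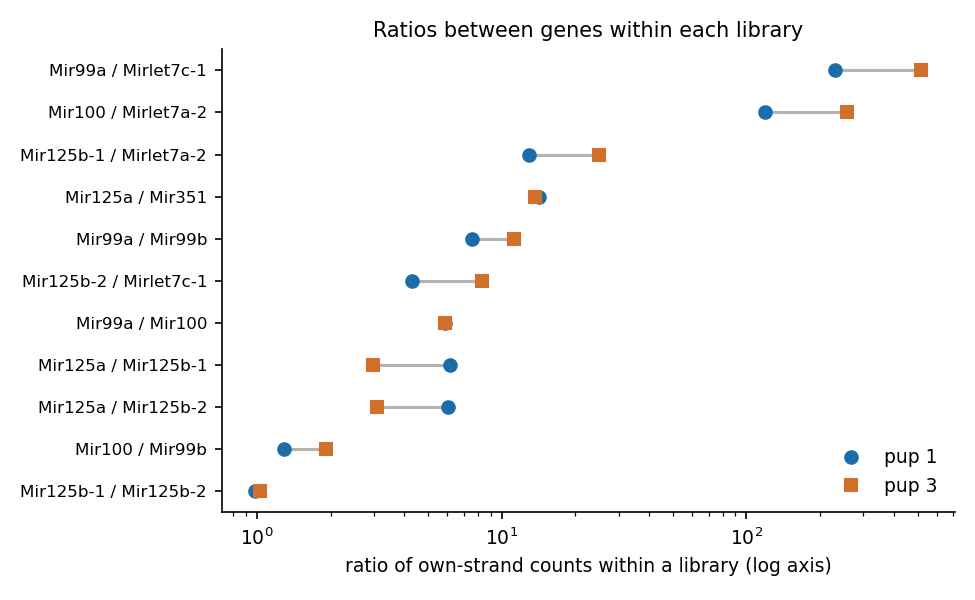
Ratios of own-strand counts between 2 genes of the same library (log axis) in pup 1 (circles) and pup 3 (squares), joined by a line. The symbols coincide for Mir99a to Mir100, at 5.88 and 5.86, and stand apart for ratios to Mir99b, to the let-7 neighbours and of Mir125a to either miR-125b copy.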

How the data were processed

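The authors deposited 1 table of raw read counts per library, by miRNA gene, for reads on either strand, the gene's own strand and the opposite strand. Per the text files deposited beside them, assembly is mm10 and annotation M4. Aligner, counter and trimming were not given in the sources used here. Rows naming no gene stayed out of totals: in pup 1 and pup 3, 17.7% and 13.9% of reads were unmapped, 37.9% and 39.4% matched several places and 2.66% and 1.59% lay in no feature. Own-strand counts were used. IDs were matched without version to GENCODE M21 (1894 of 1973 genes). The group has no contrast, so edgeR 4.0.16 and DESeq2 1.42.0 served for library scaling only. The exact binomial test (scipy 1.17.1) was tested on simulated Poisson counts. Those hold counting error only, so calls that arise from other variation between libraries were not tested. Named genes were the members, their let-7 neighbours, seed partners, rank neighbours and the 3 genes nearest Mir99a in difference. Alternatives covered scaling, denominator, strand, filter, pseudocount, detection level and each pup alone. Members and lists were chosen with earlier results of these data known.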

Additional observations from a re-analysis of the deposited data

Results flagged for a closer look

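Reads of a strand the comparisons do not use were found at the let-7 position of the chromosome 17 locus. Gm25927 is annotated on the minus strand over Mirlet7e, which lies on the plus strand at 17830352 to 17830444. Its opposite-strand counts, that is plus-strand reads, were 33868 in pup 1 and 40553 in pup 3, against 0 on its own strand. Scaled by own-strand totals they came to 6903 per 1000000 in pup 1 and 6500 per 1000000 in pup 3. This made it the second highest opposite-strand row in both libraries, with 22.2% and 18.5% of all opposite-strand counts. The mature let-7e-5p annotated there is shown to identify the gene, with bases 2 to 8 in capitals.
let-7e-5p: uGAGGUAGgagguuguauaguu
The plus-strand level at Mirlet7e was below Mir99b in both pups. It was below Mir125a as well, and its log2 difference between the pups was 0.05 where Mir125a had -0.73. Whether these reads come from Mirlet7e was not tested, since the rows hold no read sequences. Of the members themselves, Mir125b-2 had 1 opposite-strand count in pup 3 and all others 0.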

How the results depend on the processing

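No paired analysis was possible because the series has 1 group. Of the 6 members, all kept the sign of their difference between pups under every scaling, filter, pseudocount and strand tried, and none was called at 2-fold. For Mir99b the difference was only -0.01 with DESeq2 size factors (exact binomial adjusted p = 0.0645), so its direction is not set. Levels moved by more than the SD of the pups only with 2 other denominators. Taking each pup alone could not move a level by this rule, because each of 2 values always lies within their SD of the mean. Per 1000000 of all reads in the table, Mir99a had 61722, Mir100 10517, Mir99b 6648, Mir125a 4720, Mir125b-1 1069 and Mir125b-2 1060. Per 1000000 own-strand counts without Mir99a, Mir100 had 29272, Mir99b 18567, Mir125b-1 2977 and Mir125b-2 2955. Of all tested genes, 34 were called, 5 higher and 29 lower in pup 3. With 100 or more counts required, 18 were called, 0 higher and 18 lower, where fewer genes were tested. DESeq2 size factors gave 8 higher, and at any fold 242 passed, 121 in each direction. TMM raised log2 differences by 0.14 against library totals.

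Taking each pup alone, levels ranged from 129913 to 162661 CPM for Mir99a, 22112 to 27741 for Mir100, 14533 to 17208 for Mir99b, 8046 to 14667 for Mir125a, 2382 to 2692 for Mir125b-1 and 2431 to 2610 for Mir125b-2. Seed shares ranged from 16.9% to 20.5% and from 1.33% to 1.95%. With 2 libraries, no spread between animals can be separated from preparation.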
